A study of Mus musculus with 23 samples.

Results

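The zinc finger genes Zfp748, Zfp932 and Zfp951 were followed across 8 groups of mouse blood stem and progenitor cells that kept or lacked the p110α and p110δ subunits of phosphoinositide 3-kinase (PI3K). They were picked because their values changed without p110δ, so every comparison of cells without and with p110δ is given below as a description and carries no test. Each gene was found by its symbol in the 6 comparison tables that the authors deposited, and each symbol led to 1 transcript cluster. A transcript cluster is the set of array probes that is read as 1 gene. The 3 clusters are TC1300002252.mm.1 for Zfp748, of the coding type per the authors' deposited tables, and TC0500001128.mm.1 for Zfp932 and TC0500002892.mm.1 for Zfp951, both of the multiple complex type. They are 3 of 65956 clusters on the array, and 3 of the 524 clusters that the comparison tables list with exactly 1 symbol.

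The 2 sorted populations, both from marrow of transplant recipients that had been pooled, were hematopoietic stem cells, or HSC, and progenitors primed for lymphoid fates, the lymphoid-primed multipotent progenitors or LMPP. Both were lineage-negative and c-Kit-positive. HSC were positive for CD150 and negative for Flk2 and CD48, and LMPP were positive for Flk2 and CD48 and negative for CD150. In each cell type the genotypes were DKO (p110αδ double knockout), deltaKO (p110δ-/-), alphaKO (p110α-/-) and WT (wild type). DKO and deltaKO cells are called cells without p110δ here, and alphaKO and WT cells are called cells with p110δ. All cells had passed through transplanted hosts, WT included. How the alleles were made, and from how many donors and recipients each pool came, is not given in the sources used here. Replicate numbers only name the arrays of a group and were given in order of deposit. Each group had 3 arrays, of 1 female and 2 male samples, except LMPP WT, which had 2 arrays, 1 of each sex. Whether each array of a group had its own pool of recipients is not stated, so the p-values measure the spread between these arrays, which may be technical. The number of arrays limits the precision.

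Class I PI3K makes a membrane lipid signal that activates the kinase AKT, and p110α and p110δ are 2 of its catalytic subunits, encoded by Pik3ca and Pik3cd. The expression of p110δ is concentrated in white blood cells, while p110α is broadly expressed. Proteins with tandem C2H2 zinc fingers bind DNA, each finger contacting a few bases. Many of them also carry a KRAB domain, which recruits the corepressor TRIM28 and the histone methyltransferase SETDB1, and a large share of this family silences endogenous retroviruses and other transposable elements. Mouse ZFP932 is known to bind endogenous retroviruses in embryonic stem cells. Zfp748 lies in a large array of KRAB zinc finger genes on chromosome 13 that also holds Rsl1, a repressor of sex-limited genes in mouse liver.

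The sequence just before each gene is shown because the promoters of 2 of the 3 genes share sequence. Likeness of their patterns across the groups is partly built in, as all 3 were picked for changes without p110δ. The 250 bases before the gene start are from RefSeq (GRCm38.p6), written 5′ to 3′ on the strand of the gene, and the build behind the array files is not given in the sources used here. RefSeq's table held 1 start for Zfp748 and 2 each for Zfp932 and Zfp951, and the start listed first was used. Capitals mark CCAATCAGAG, CCTGCCAGTCAGA and each TTCCG on either strand.

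Zfp748, chr13:67553153-67553402, minus strand: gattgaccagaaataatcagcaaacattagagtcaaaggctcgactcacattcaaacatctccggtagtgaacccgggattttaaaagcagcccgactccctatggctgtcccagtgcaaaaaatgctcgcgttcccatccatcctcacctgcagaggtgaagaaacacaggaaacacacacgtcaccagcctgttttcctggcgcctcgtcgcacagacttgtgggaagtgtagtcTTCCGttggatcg

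Zfp932, chr5:109996260-109996509, plus strand: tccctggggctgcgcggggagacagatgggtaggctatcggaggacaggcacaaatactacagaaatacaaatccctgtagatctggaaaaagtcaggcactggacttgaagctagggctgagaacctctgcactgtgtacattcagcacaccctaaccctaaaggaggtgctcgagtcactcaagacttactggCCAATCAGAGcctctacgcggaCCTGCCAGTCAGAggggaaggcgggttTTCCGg

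Zfp951, chr5:104860028-104860277, minus strand: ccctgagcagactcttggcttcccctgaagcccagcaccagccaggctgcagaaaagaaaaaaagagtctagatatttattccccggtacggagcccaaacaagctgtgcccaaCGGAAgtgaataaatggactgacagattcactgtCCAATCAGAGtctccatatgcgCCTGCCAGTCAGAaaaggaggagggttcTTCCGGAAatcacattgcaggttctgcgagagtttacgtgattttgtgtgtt

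The promoters of Zfp932 and Zfp951 both held CCAATCAGAG, which contains a CCAAT box, and both held CCTGCCAGTCAGA further towards the gene start. CCTGCCAGTCAGA, of 13 bases, was their longest shared run. In Zfp932 the first bases of these runs were at -55 and -33 from the gene start, and in Zfp951 they were at -102 and -80. The runs thus started 22 bases apart in both promoters. These letters were picked after the sequences were seen. On either strand, CCAATCAGAG was in 222 of 32851 RefSeq promoter windows of the same length (0.676%), and CCTGCCAGTCAGA was in 46 (0.140%). Both runs together were in the windows of 8 of 27025 genes, which were Zfp33b, Zfp932, Zfp951, AB010352 and Gm35089 on chromosome 5, Gm14326 on chromosome 2, Gm32856 on chromosome 8 and Gm9631 on chromosome 11. The 3 genes with a zinc finger name among them were all on chromosome 5, and zinc finger genes under other names were not counted. In RefSeq's gene order AB010352 and Gm35089 lie near Zfp932, with 3 and 4 genes between, and Zfp33b lies near Zfp951, with 8 genes between, while 150 genes separate Zfp932 from Zfp951. As the runs were taken from Zfp932 and Zfp951, both of these are among the 8 by construction.

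Zfp748 held neither run, and its longest run shared with Zfp932 or with Zfp951 was 8 bases. All 3 windows held TTCCG, the core bound by ETS family factors, which was in 25.2% of all windows on either strand. CCAAT alone was in 33.8% of windows. The FOXO motif TGTTTAC was in 3.17% of windows, the TATA box TATAAA in 12.4% and the E-box CACGTG in 6.02%, each counted on both strands, and none of the 3 windows held any of them. The share of G and C bases was 50.4% for Zfp748, 54.4% for Zfp932 and 49.2% for Zfp951, beside a median of 52.4% over all windows. A match to such letters describes the sequence and shows no binding.

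The values are log2 RMA values, in which a difference of 1 is a doubling of signal. Probes differ in brightness, so values are compared between arrays for the same gene and not between genes. Averaged over the 23 arrays Zfp748 was at 9.05, above 87.1% of clusters, Zfp932 at 9.99, above 90.8%, and Zfp951 at 7.30, above 76.7%. All 3 passed the filter on low values, which kept the 32978 clusters with a mean at or above the median of all clusters, 4.954. The array LMPP WT replicate 2 stood apart, with an array median of 5.29, where the other arrays had medians between 4.83 and 5.04. Its mean correlation with the other LMPP arrays was 0.961, and that of each other LMPP array was between 0.980 and 0.986. It was the lowest of all 23 arrays for Zfp932 and for Zfp951, and each result with LMPP WT rests partly on it.

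Zfp748 was highest in HSC deltaKO, LMPP DKO and LMPP deltaKO. It measured 9.17, 10.01 and 9.61 in LMPP DKO, 9.19, 9.69 and 9.55 in LMPP deltaKO, 8.34, 9.05 and 8.31 in LMPP alphaKO, and 8.65 and 8.47 in LMPP WT. Every LMPP array without p110δ was above every LMPP array with it. In HSC it measured 9.0, 8.67 and 9.15 in DKO, 9.27, 9.78 and 9.88 in deltaKO, 8.06, 9.11 and 8.50 in alphaKO, and 9.04, 8.31 and 9.42 in WT. The HSC groups overlapped, except that all 3 deltaKO arrays were above all DKO and all alphaKO arrays.

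Zfp932 stood out for its low level in LMPP WT. It measured 9.62, 9.99 and 10.34 in LMPP DKO, 10.24, 10.09 and 10.36 in LMPP deltaKO, 9.92, 9.86 and 9.65 in LMPP alphaKO, and 9.10 and 8.75 in LMPP WT. Both LMPP WT arrays were below every other array of the study. In HSC it measured 10.09, 10.50 and 10.50 in DKO, 10.16, 10.37 and 10.63 in deltaKO, 9.26, 10.41 and 10.08 in alphaKO, and 10.11, 9.86 and 9.97 in WT. The HSC deltaKO arrays were all above the HSC WT arrays, and the 3 alphaKO arrays were spread widely, 1 of them below every other HSC array.

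Zfp951 had higher group means without p110δ than with it in both cell types. It measured 7.47, 7.51 and 7.31 in LMPP DKO, 7.92, 7.38 and 7.83 in LMPP deltaKO, 7.14, 7.16 and 6.99 in LMPP alphaKO, and 6.93 and 6.36 in LMPP WT. All 6 LMPP arrays without p110δ were above all 5 with it. In HSC it measured 7.32, 7.65 and 7.71 in DKO, 7.30, 7.85 and 7.86 in deltaKO, 6.54, 7.42 and 7.27 in alphaKO, and 6.92, 6.71 and 7.29 in WT. Each HSC array of DKO and of deltaKO was above each HSC WT array, and 4 of these 6 were also above every alphaKO array.

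**Figure D1:**
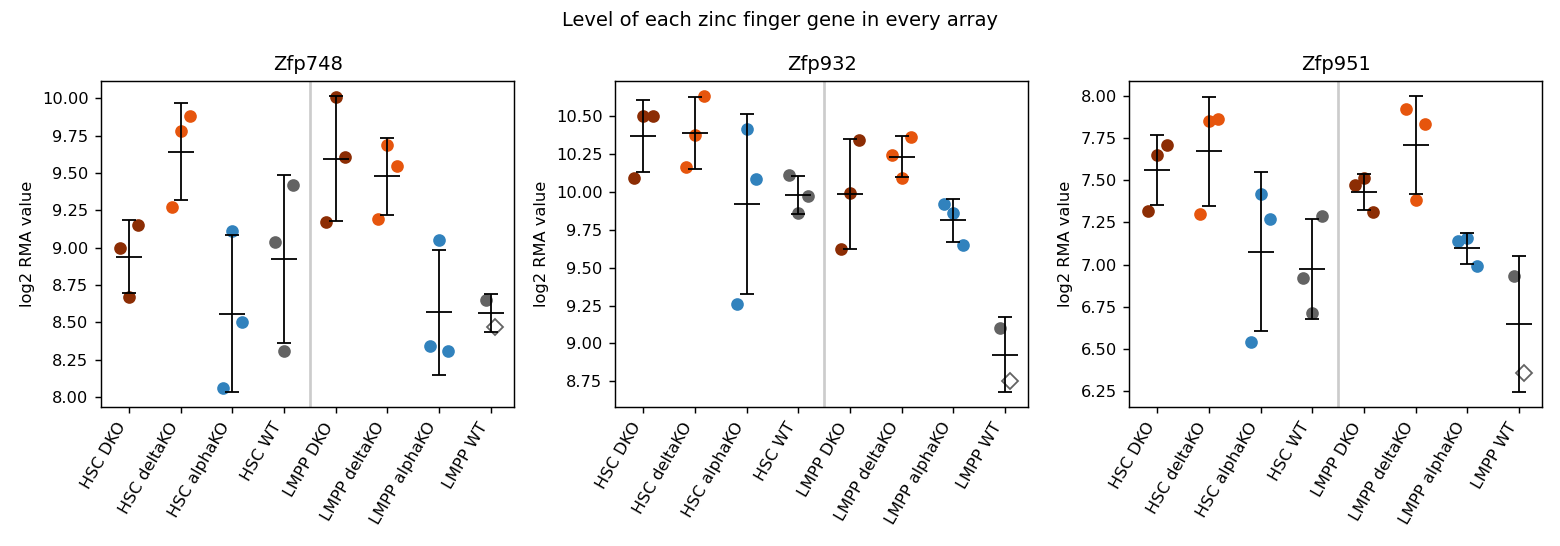
Log2 RMA value (vertical axis) of Zfp748, Zfp932 and Zfp951 on each of the 23 arrays, with HSC groups left of the grey line and LMPP groups right of it. Points are arrays, black bars are group means with SD, and the open diamond is LMPP WT replicate 2, the lowest array for Zfp932 and Zfp951. Zfp748 and Zfp951 are higher on every LMPP array without p110δ than on every LMPP array with it.

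Ordered by group mean, Zfp748 was lowest in HSC alphaKO (8.56 ± 0.52, SD, n = 3), LMPP WT (8.56 ± 0.13, SD, n = 2) and LMPP alphaKO (8.57 ± 0.42, SD, n = 3). HSC WT (8.92 ± 0.57) and HSC DKO (8.94 ± 0.24) were in the middle. LMPP deltaKO (9.48 ± 0.26), LMPP DKO (9.59 ± 0.42) and HSC deltaKO (9.64 ± 0.32) were highest. The arrays of neighbouring groups overlapped along this order except between HSC DKO and LMPP deltaKO, whose means were 0.54 apart. HSC DKO thus had a mean near those of the groups with p110δ, while LMPP DKO was among the highest.

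For Zfp932 LMPP WT was lowest, at 8.93 ± 0.25 (SD, n = 2), and the next group, LMPP alphaKO, was 0.89 higher at 9.81 ± 0.14 (SD, n = 3) with no overlap. From there the groups overlapped with their neighbours, from HSC alphaKO (9.92 ± 0.59), HSC WT (9.98 ± 0.13) and LMPP DKO (9.98 ± 0.36) to LMPP deltaKO (10.23 ± 0.13), HSC DKO (10.36 ± 0.24) and HSC deltaKO (10.39 ± 0.24). For Zfp951 the 4 groups with p110δ were the lowest 4, LMPP WT at 6.65 ± 0.41 (SD, n = 2), HSC WT at 6.97 ± 0.30, HSC alphaKO at 7.08 ± 0.47 and LMPP alphaKO at 7.10 ± 0.09 (SD, n = 3 each). A gap of 0.33 without overlap separated LMPP alphaKO from LMPP DKO at 7.43 ± 0.11. HSC DKO (7.56 ± 0.21), HSC deltaKO (7.67 ± 0.32) and LMPP deltaKO (7.71 ± 0.29) followed, and each overlapped with its neighbour in the order. Groups with and without p110δ were not fully apart, as HSC alphaKO reached 7.42 and LMPP DKO began at 7.31.

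The loss of p110δ was the contrast that picked the genes. Differences without minus with p110δ are means of the 2 genotypes without it minus means of the 2 genotypes with it, each genotype weighted equally. In LMPP this difference was 0.97 on the log2 scale for Zfp748, 0.74 for Zfp932 and 0.70 for Zfp951, beside a median of 0.04 over all clusters tested. Zfp748 and Zfp951 had no overlap between the 6 arrays without and the 5 arrays with p110δ, as had 0.743% of clusters tested in this direction, and for Zfp932 5 of the 6 were above all 5. In HSC the difference was 0.55 for Zfp748, 0.43 for Zfp932 and 0.59 for Zfp951, beside a median of 0.02. All 3 genes overlapped there, with 2, 3 and 4 of the 6 arrays without p110δ above all 6 arrays with it, and 1.00% of clusters tested had no overlap in this direction. The HSC difference of Zfp932 was 0.26 without HSC alphaKO replicate 1. Without LMPP WT replicate 2 the LMPP differences were 0.93, 0.65 and 0.55.

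Against WT the deltaKO arrays of LMPP were higher by 0.92 for Zfp748, 1.30 for Zfp932 and 1.07 for Zfp951, which are folds of 1.89, 2.47 and 2.09. All 3 genes had no overlap there, as had 15.2% of clusters tested in this direction. The DKO arrays of LMPP were higher than WT by 1.03, 1.06 and 0.78, folds of 2.05, 2.08 and 1.72, again without overlap for all 3 genes and for 14.7% of clusters tested. Without LMPP WT replicate 2 the values for deltaKO were 0.83, 1.13 and 0.78 and those for DKO 0.94, 0.88 and 0.50. With alphaKO in the place of WT, DKO differed by 1.03 for Zfp748, 0.17 for Zfp932 and 0.33 for Zfp951, with overlap for Zfp932 alone, and 6.32% of clusters had no overlap in this direction. DeltaKO exceeded alphaKO by 0.91, 0.42 and 0.61 with no overlap for the 3 genes and for 7.00% of clusters. The values for Zfp748 were thus close whichever group with p110δ was subtracted, and those for Zfp932 were largest against WT.

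In HSC deltaKO was above WT by 0.72 for Zfp748, with overlap, by 0.41 for Zfp932 and by 0.70 for Zfp951, both without overlap, as had 7.51% of clusters tested. DKO was above WT by 0.01 for Zfp748 and 0.38 for Zfp932, both with overlap, and by 0.58 for Zfp951 without overlap, which 9.07% of clusters tested also showed. Without HSC WT replicate 2 deltaKO minus WT for Zfp748 was 0.41. DKO was above alphaKO by 0.38, 0.45 and 0.48, with overlap for all 3 genes and no overlap for 6.34% of clusters. With HSC alphaKO replicate 1 left out, these values were 0.14, 0.12 and 0.21. DeltaKO was above alphaKO by 1.09 for Zfp748 without overlap, and by 0.47 and 0.60 for Zfp932 and Zfp951 with overlap, and 6.76% of clusters had no overlap. These comparisons share arrays, and their values for a gene are not separate observations.

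The authors' deposited tables list a gene from a fold of 2.01 and up to an unadjusted p-value of 0.049953, and list the 3 genes in LMPP tables and in no HSC table. In the authors' deposited table for LMPP DKO against WT, Zfp748 had a fold of 2.05 with a p-value of 0.048246 and Zfp932 a fold of 2.08 with 0.03909, both at an FDR of 0.68208. In the authors' deposited table for LMPP deltaKO against WT, Zfp932 had a fold of 2.47 with a p-value of 0.004268 and Zfp951 a fold of 2.33 with 0.039502, both at an FDR of 0.778639. The authors' deposited table puts Zfp951 at 7.87 in LMPP deltaKO, a biweight average, where the mean of the 3 arrays was 7.71. Zfp748 in LMPP deltaKO, with a fold of 1.89 of means, and Zfp951 in LMPP DKO, with 1.72, were below the lowest listed fold. Zfp932 in LMPP alphaKO, 0.89 above WT on the log2 scale, is not listed either. No cluster named in these tables can serve as independent evidence of its own direction.

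The comparison of HSC with LMPP was not used to pick the genes, though it includes arrays that were, among them those of WT, deltaKO and DKO. The authors listed the 3 genes as higher without p110δ than in LMPP WT. Low LMPP WT values are thus partly built in, and they raise HSC minus LMPP. Zfp932 was higher in HSC, with values from 9.26 to 10.63 and a mean of 10.16 ± 0.37 (SD, n = 12) in HSC, against values from 8.75 to 10.36 and a mean of 9.81 ± 0.51 (SD, n = 11) in LMPP. Averaged over genotypes the difference was 0.42 (SE 0.12, 95% interval 0.16 to 0.68), with a limma adjusted p of 0.0183. It was lost without LMPP WT replicate 2, at 0.38 with an adjusted p of 0.0547, and with the 3 knockout genotypes alone, at 0.21 with an adjusted p of 0.338. By genotype, HSC minus LMPP was 0.38 in DKO, 0.16 in deltaKO, 0.10 in alphaKO and 1.05 in WT, and only the WT arrays of the cell types did not overlap. The share of all clusters without overlap between cell types was not counted by genotype. The difference for Zfp932 was thus largest in WT, and the call did not hold without LMPP WT replicate 2.

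Zfp748 measured 9.02 ± 0.55 (SD) over the 12 HSC arrays and 9.09 ± 0.59 over the 11 LMPP arrays, a difference of -0.03 (SE 0.16, 95% interval -0.37 to 0.30) with a limma adjusted p of 0.907. By genotype HSC minus LMPP was -0.65 in DKO, without overlap, and 0.17 in deltaKO, -0.01 in alphaKO and 0.37 in WT, these 3 with overlap. As for Zfp932, the share of all clusters without overlap was not counted by genotype. Zfp951 measured 7.32 ± 0.43 (SD) over the 12 HSC arrays and 7.27 ± 0.44 over the 11 LMPP arrays, a difference of 0.10 (SE 0.12, 95% interval -0.15 to 0.35) with a limma adjusted p of 0.599. By genotype its differences were 0.13, -0.04, -0.02 and 0.33, in the order DKO, deltaKO, alphaKO and WT, all with overlap. Of the 3 genes 1 passed, in a comparison where limma called 23.3% of clusters tested, 12.8% as higher and 10.5% as lower in HSC, and 35.0% had an unadjusted p below 0.05.

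The loss of p110α alone was compared with WT. In HSC none of the 3 genes differed past the threshold. Zfp748 was at -0.37 against WT (SE 0.32, 95% interval -1.08 to 0.34), Zfp932 at -0.06 (SE 0.26, 95% interval -0.64 to 0.52) and Zfp951 at 0.10 (SE 0.26, 95% interval -0.46 to 0.67), each with a limma adjusted p of 1. Limma called 0 clusters there (0%), and 919 (2.79%) had an unadjusted p below 0.05. These intervals do not exclude differences of the size seen without p110δ for Zfp932 and Zfp951.

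In LMPP Zfp932 averaged 9.81 ± 0.14 in alphaKO and 8.93 ± 0.25 in WT (SD, n = 3 and n = 2), a difference of 0.89 (SE 0.23, 95% interval 0.38 to 1.39) without overlap. Its unadjusted limma p was 0.00303 and its adjusted p 0.553. Zfp951 differed by 0.45 (SE 0.22, 95% interval -0.04 to 0.95), also without overlap and with an adjusted p of 0.553, and Zfp748 by 0.01 (SE 0.30, 95% interval -0.66 to 0.68) with an adjusted p of 0.996. The value for Zfp951 was 0.17 without LMPP WT replicate 2 and 0.74 without LMPP WT replicate 1. Limma called 0 clusters (0%) in this comparison, while 2880 (8.73%) had an unadjusted p below 0.05. Without LMPP WT replicate 1, which leaves LMPP WT replicate 2 alone, Zfp932 passed at 1.06 with a limma adjusted p of 0.0366, together with 4454 clusters. The LMPP WT arrays are the same ones that give the differences of deltaKO and DKO from WT above. Genes listed on those differences tend to have low LMPP WT values, which also raise alphaKO minus WT. For Zfp932, then, all 3 LMPP knockouts lay above both WT arrays, alphaKO with p110δ among them. The share of all clusters without overlap was not counted for alphaKO minus WT. For deltaKO minus WT and DKO minus WT in LMPP it was 15.2% and 14.7% in the higher direction.

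Loss of p110α where p110δ was already absent was read as DKO minus deltaKO. Zfp748 in HSC averaged 8.94 ± 0.24 in DKO and 9.64 ± 0.32 in deltaKO (SD, n = 3 each) without overlap, a difference of -0.70 (SE 0.32, 95% interval -1.42 to 0.01) with an unadjusted limma p of 0.0525 and an adjusted p of 1. In LMPP the same gene differed by 0.12 (SE 0.27, 95% interval -0.48 to 0.72). Zfp932 was at -0.02 in HSC (95% interval -0.60 to 0.56) and -0.24 in LMPP (95% interval -0.70 to 0.21). Zfp951 was at -0.11 in HSC (95% interval -0.68 to 0.45) and -0.28 in LMPP (95% interval -0.72 to 0.16). All these adjusted p by limma were 1, limma called 0 clusters (0%) in either cell type, and 1011 (3.07%) in HSC and 1221 (3.70%) in LMPP had an unadjusted p below 0.05. The share of all clusters without overlap was not counted for DKO minus deltaKO. The intervals do not show that DKO and deltaKO are alike for any of the 3 genes.

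The difference between cell types in these effects was tested too. For alphaKO minus WT, HSC minus LMPP was -0.95 for Zfp932 (SE 0.36), with an unadjusted limma p of 0.017 and an adjusted p of 0.447. It was -0.38 for Zfp748 and -0.35 for Zfp951, with adjusted p of 0.762 and 0.701. For DKO minus deltaKO it was -0.82 for Zfp748 (SE 0.44, unadjusted limma p 0.0775), 0.22 for Zfp932 and 0.17 for Zfp951, each with an adjusted p of 1. In none of these 6 tests was an effect shown to differ between HSC and LMPP.

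Male minus female, with the group held in the fit, was -0.34 for Zfp748 (SE 0.15, 95% interval -0.65 to -0.02), with an unadjusted limma p of 0.0387 and an adjusted p of 0.596. It was -0.16 for Zfp932 and -0.13 for Zfp951, with adjusted p of 0.803 and 0.856. Over all clusters limma called 25 (0.0758%), 12 of them higher (0.0364%) and 13 lower (0.0394%) in males. Groups of 3 arrays have the same sexes, and LMPP WT has 1 male array fewer.

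**Figure D2:**
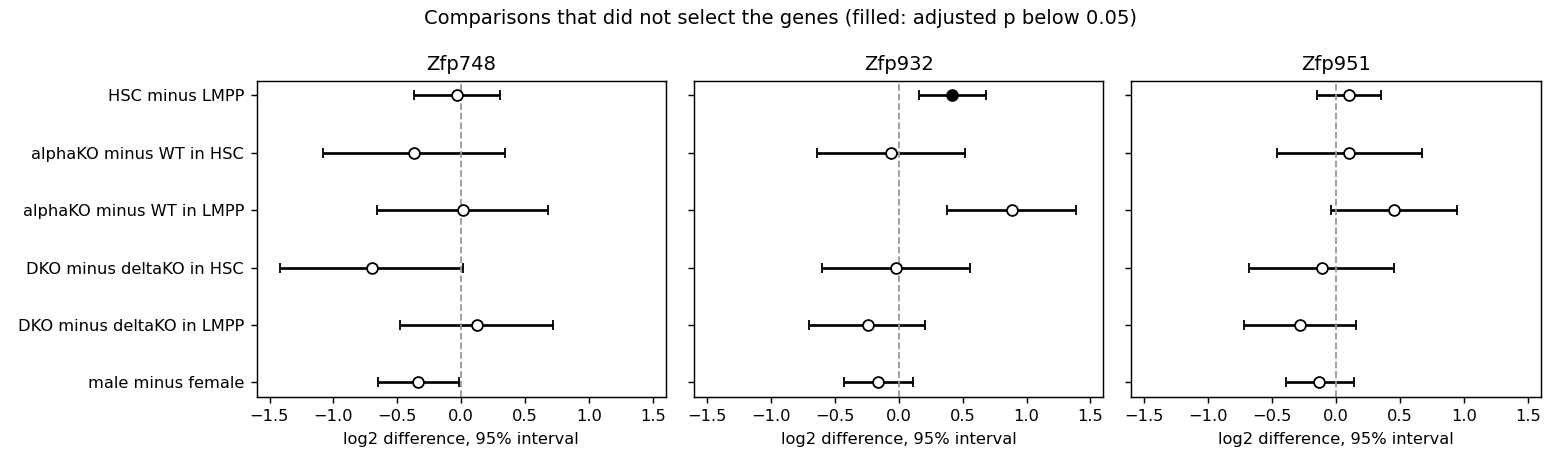
Log2 differences (horizontal axis) with 95% intervals for the 3 genes in 6 comparisons, one row for each comparison. None of them was the contrast that picked the genes, but each includes arrays of that contrast. Picking the genes favoured low LMPP WT values, which raise HSC minus LMPP and alphaKO minus WT in LMPP. Only HSC minus LMPP for Zfp932, the filled point at 0.42, had an adjusted p below 0.05, and its interval runs from 0.16 to 0.68.

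The SD of HSC alphaKO was the largest of the 8 groups for Zfp932 and Zfp951 and the second largest for Zfp748, after HSC WT. Replicate 1 of HSC alphaKO deviated from the group mean by -0.49 for Zfp748, -0.66 for Zfp932 and -0.54 for Zfp951, and replicate 2 by 0.55, 0.49 and 0.34.

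Other zinc finger genes of the comparison tables were described with them. A list of symbols that begin with Zfp or with related stems gave 11 clusters, the 3 genes and 8 others, all of which passed the filter. The authors listed each of the 8 in an LMPP table and none in an HSC table, so their direction in LMPP is not independent evidence. Without minus with p110δ in LMPP was positive for 7 of the 8, with a median of 0.64, beside 0.04 over all clusters tested. In HSC it was positive for 5 of 8, with a median of 0.10, beside 0.02. None of the 8 had all arrays without p110δ above all arrays with it in either cell type.

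The KRAB zinc finger gene closest to Zfp748 in position among them, Zfp85 on chromosome 13, was at 0.31 in HSC and 0.69 in LMPP. Rsl1, on the same chromosome, was at -0.06 in HSC and 0.54 in LMPP. Zfp790 was at 0.39 and 0.88, Zfp62 at 0.21 and 0.71, Zfp938 at 0.04 and 0.58 and Zfp84 at -0.07 and 0.69, HSC first and LMPP second. Zfp521, a transcription factor of blood progenitors, was at 0.15 in HSC and 0.48 in LMPP. The 1 negative value in LMPP belonged to Zfp36l1, at -1.05 there and -0.34 in HSC, whose protein has zinc fingers of another kind that bind AU-rich messenger RNA and promote its decay. The named genes with C2H2 fingers thus all had positive values in LMPP. In HSC the values of Zfp748, Zfp932 and Zfp951 were higher than those of these 8 genes. As this contrast picked Zfp748, Zfp932 and Zfp951, their rank is a description alone. Zfp987 and Zfp981, described below, had higher values in HSC than any of them.

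Of the 8 genes 2 passed the test of HSC against LMPP, both higher in HSC, where 12.8% of all clusters tested passed in this direction and 23.3% in either. The count of 2 of 8 is near that background. Zfp521 differed by 0.98 (SE 0.15, limma adjusted p 0.000113) and Zfp790 by 0.59 (SE 0.15, limma adjusted p 0.00788). None of the 8 passed in the other 5 comparisons. In alphaKO minus WT of LMPP, where p110δ is present in both groups, their median was 0.61, beside 0.04 over all clusters tested. The authors had selected the 8 genes against the same LMPP WT arrays, so this median is a description alone. The medians of the 8 were 0.04 for HSC minus LMPP, 0.09 for alphaKO minus WT in HSC, -0.01 and -0.04 for DKO minus deltaKO in HSC and LMPP, and 0.01 for male minus female.

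The RefSeq table gave a zinc finger name to 3 further clusters that the files list under an older symbol, found after their values were seen. Zfp987 (Gm13051 in the files) differed by 1.10 in HSC and 1.27 in LMPP without minus with p110δ, and Zfp981 (Gm13247) by 0.91 and 0.96. Both are on chromosome 4, their cluster numbers are adjacent, and both had no overlap in either cell type. Of clusters tested, 1.00% in HSC and 0.743% in LMPP had no overlap in this direction. The authors listed both in a table of deltaKO against WT, so their direction is not independent evidence. Pik3cd is also on chromosome 4, and the part of this position in the values was not tested. Zfp975 (Gm5595), on chromosome 7, was at 0.43 in HSC and 0.87 in LMPP, with overlap in both. Probes of such related genes can bind transcripts of more than 1 of them, and the part of this in these values was not tested.

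**Figure D3:**
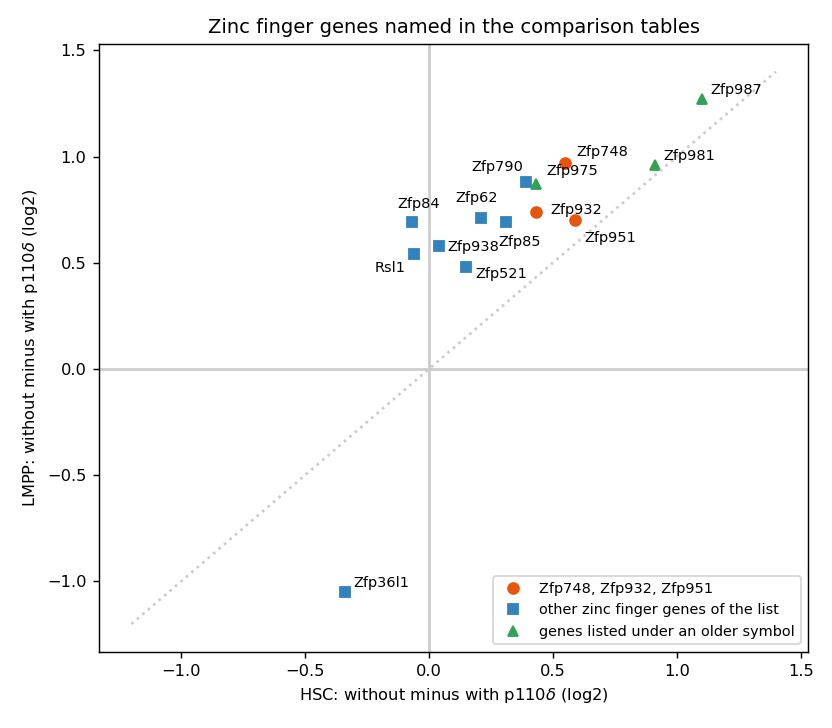
Difference without minus with p110δ on the log2 scale in HSC (horizontal axis) and in LMPP (vertical axis) for Zfp748, Zfp932 and Zfp951 (circles), the 8 other genes of the list (squares) and 3 genes listed under an older symbol (triangles). The dotted line marks equal differences. Most points lie above it, with Zfp951 closest to it among the 3 genes, and Zfp36l1 is the only one with negative values in both cell types.

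Of the other genes around this pathway, 0 of 19 corepressor genes (among them Trim28 and Setdb1) and 0 of 10 PI3K genes (among them Pik3ca and Pik3cd) are named in the files, so neither the corepressor nor the targeted subunits were analysed here.

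The clusters next to each gene in the numbering of the array were read the same way. This numbering does not follow position alone, as Zfp951 lies before Zfp932 on chromosome 5 but has the higher number. The clusters read may thus not be the nearest on the chromosome. For Zfp748 8 of the 10 clusters next to it in number passed the filter. Their differences without minus with p110δ were from -0.02 to 0.27 (median 0.17) in HSC and from 0.02 to 0.57 (median 0.36) in LMPP. All 8 were thus above 0 in LMPP, each below the 0.97 of Zfp748. RefSeq's gene order puts Zfp748 between Zfp87 and the noncoding gene 9430065F17Rik, and 13 of the 13 protein-coding genes among its 20 nearest genes have a zinc finger name. For Zfp932 7 of 10 clusters passed, with differences from -0.22 to 0.32 (median 0.02) in HSC and from -0.12 to 0.64 (median 0.07) in LMPP. Its highest neighbour was the adjacent cluster TC0500001127.mm.1, at 0.32 in HSC and 0.64 in LMPP, followed by TC0500001123.mm.1 at 0.31 and 0.51. The files give no symbol for either, and in RefSeq's order the gene just before Zfp932 is Gm15446, listed there as noncoding and known from work on mouse embryonic stem cells as a paralogue of Zfp932. For Zfp951 5 of 10 clusters passed, with differences from -0.20 to 0.54 (median 0.06) in HSC and from -0.07 to 0.17 (median 0.04) in LMPP. The adjacent TC0500002891.mm.1 was at 0.54 in HSC and 0.17 in LMPP. Of the protein-coding genes near Zfp932 1 of 10 has a zinc finger name, Zfp605, and near Zfp951 1 of 8, Zfp33b. These counts rest on names alone, and zinc finger genes under other names were not counted. Zfp33b is also among the genes whose promoter window holds both runs printed above.

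**Figure D4:**
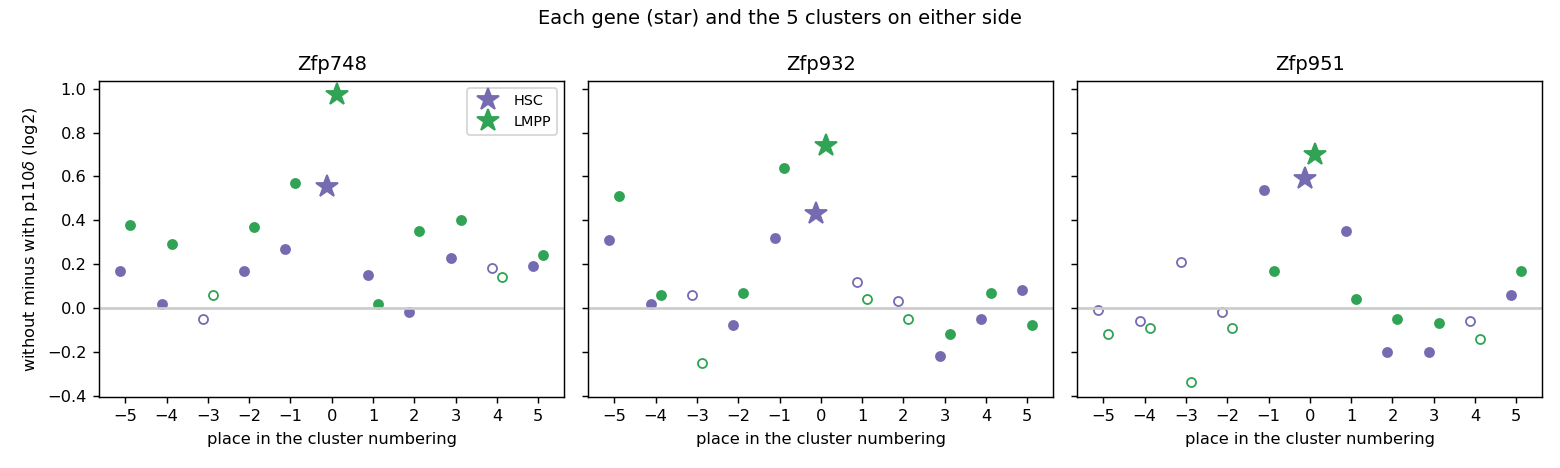
Difference without minus with p110δ on the log2 scale (vertical axis) for each gene (stars) and the 5 clusters before and after it in the array's numbering (horizontal axis), in HSC and in LMPP. Filled circles passed the filter on low values and open circles did not. Around Zfp748 the LMPP differences of clusters that passed lie between 0.02 and 0.57, and around Zfp951 between -0.07 and 0.17.

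The named clusters most like each gene were found by Pearson's r over the 8 group means, among 294 named clusters, all of them selected by the authors on these arrays. The points share the same arrays, LMPP WT included, so the values only describe the patterns. Among those most like Zfp748 were Polg2 (r 0.89), a subunit gene of the mitochondrial DNA polymerase, Rbm44 (0.88), 1700001K19Rik (0.85) and Zfp85 (0.83). Polg2 averaged 10.36 in LMPP DKO, 11.01 in LMPP deltaKO, 9.73 in LMPP alphaKO and 9.46 in LMPP WT. Its means in HSC were 10.40 in DKO, 11.09 in deltaKO, 9.11 in alphaKO and 9.81 in WT. The 4 groups without p110δ had the highest means of Polg2, deltaKO above DKO in both cell types.

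Zfp932 was most like 5430403G16Rik (0.97), 2610008E11Rik (0.96), 2210017G18Rik (0.95), Zfp790 (0.95) and Tbc1d32 (0.94). 5430403G16Rik is on chromosome 5 with 8 genes between it and Zfp932, and its role is not described here. Its lowest mean was 7.64, in LMPP WT, and the other 7 means were from 8.71 in LMPP alphaKO to 9.31 in HSC DKO. Most opposed to Zfp932 were Treml4 (-0.94), which encodes a receptor of macrophages and dendritic cells, the tight junction gene Cldn1 (-0.92) and Cd226 (-0.92), which encodes an adhesion receptor of T and natural killer cells, each highest in LMPP WT. Among those most like Zfp951 were 5430403G16Rik, Polg2, Zfp932 and Zfp85 (0.88 each). Between the 3 genes r was 0.61 for Zfp748 and Zfp932, 0.80 for Zfp748 and Zfp951 and 0.88 for Zfp932 and Zfp951.

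Most opposed to Zfp951 were the stress-induced gene Gadd45b (-0.97), the cell cycle inhibitor gene Cdkn1a, which encodes p21 (-0.96), and the kinase gene Sgk1 (-0.92). Gadd45b averaged 10.40 ± 0.81 in LMPP DKO, 10.20 ± 0.19 in LMPP deltaKO, 11.30 ± 0.59 in LMPP alphaKO (SD, n = 3 each) and 11.80 ± 0.77 in LMPP WT (SD, n = 2). In HSC it averaged 10.39 ± 0.29 in DKO, 10.25 ± 0.77 in deltaKO, 10.85 ± 0.40 in alphaKO and 11.40 ± 0.98 in WT. Cdkn1a averaged 10.18 in LMPP DKO, 10.07 in LMPP deltaKO, 11.84 in LMPP alphaKO and 12.23 in LMPP WT, and 9.98, 10.04, 11.52 and 11.86 in the HSC groups of the same genotypes. In each cell type both genes had lower means in DKO and deltaKO, where Zfp951 had its higher means, than in alphaKO and WT. Zfp748 did not follow this in HSC DKO, whose mean of 8.94 was beside 8.92 in HSC WT. Over all group means the clusters most opposed to Zfp748 were still Sgk1 and Zfp36l1 (-0.84 each) and Cdkn1a (-0.82). Gadd45b and Cdkn1a also respond to handling of cells, and the part of this in the results was not tested.

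Markers of cell types were read only where the authors had listed them as changed against WT on these same arrays. Their directions without p110δ are thus not independent evidence, and markers not named were not read. Of 12 granulocyte and monocyte genes 8 were named (Camp, Ctsg, Lcn2, Ltf, Ly6c2, Ms4a3, S100a8 and S100a9), and all 8 had lower means in LMPP without p110δ, with a median difference of -4.30. The log2 of their summed signal was from 13.80 to 19.10 (median 16.62) in the 6 LMPP arrays without p110δ and from 18.04 to 20.06 (median 19.85) in the 5 with it. In HSC 5 of the 8 were lower, with a median of -0.30. The sums there were from 9.65 to 14.85 (median 10.88) without and from 9.61 to 14.30 (median 12.59) with p110δ. Jchain, the 1 named of 6 B and plasma cell genes, was from 4.74 to 5.88 in LMPP without p110δ and from 6.36 to 11.0 with it. Of 4 mast cell and basophil genes 2 were named (Cpa3 and Hdc), with a median difference of -1.04 in LMPP and -0.46 in HSC. In bulk arrays fewer cells of a type and less RNA per cell cannot be told apart. The HSC markers, of which 3 of 8 were named (Selp, Tek and Vwf), had positive differences for 2 of 3 in LMPP, with a median of 0.92, and for 3 of 3 in HSC, with a median of 0.20. The log2 of their summed signal was from 11.84 to 12.87 (median 12.29) in LMPP without p110δ and from 10.80 to 12.29 (median 11.51) in LMPP with it. In HSC it was from 12.42 to 13.20 (median 13.01) without and from 12.24 to 12.94 (median 12.69) with p110δ. The part of these cells in the levels of the zinc finger genes was not tested.

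Against the labelled cell types, all 3 named HSC markers were higher in HSC than in LMPP. The LMPP label could not be checked, as 0 of 5 LMPP markers are named in the files. All 8 granulocyte and monocyte genes were lower in HSC than in LMPP.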

How the data were processed

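Mouse HSC and LMPP RNA had been hybridised to 23 Affymetrix Mouse Transcriptome Assay 1.0 arrays, 1 per sample. Per the labels, the deposited log2 values are RMA values that the authors computed for each transcript cluster in Affymetrix Expression Console. The 6 comparison tables deposited by the authors hold a signed linear fold (a score that can be below 0), biweight log2 averages, a p-value and an FDR p-value from Transcriptome Analysis Console, per the file headers and the submitters' processing notes. Tool versions and the genome build were not given in the sources used here.

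Of 72688 rows, 6732 array controls were left out. Clusters with a mean at or above the median, 4.954, were fitted with limma 3.58.1 (lmFit, eBayes) in R 4.3.3, over 32978 clusters. The 2 genotype comparisons were fitted within a cell type on its 4 groups, and cell type, sex and the difference between cell types on all arrays. Adjustment was by Benjamini-Hochberg over all clusters tested, with a threshold of 0.05, and intervals are 95% intervals of the fit. Comparisons of cells without and with p110δ were described by means, SD and overlap. Promoters were read from RefSeq. The other steps used pandas 2.3.3, numpy 2.4.6 and, for figures, matplotlib 3.10.9 under Python 3.11.15, and the fit was tested on simulated data.

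The members and lists were chosen with earlier results of these data known. Named were the 3 genes, for each the 5 named clusters of highest and the 3 of lowest r over group means (1 of these is not reported here), and the zinc finger, corepressor, PI3K and marker lists, with further genes said to be chosen later. Alternatives were the filter, quantile normalization, trend and robust options, array weights, sex as a covariate, the samples in the fit and leaving out each array.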

Additional observations from a re-analysis of the deposited data

How the results depend on the processing

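No paired analysis was possible because the labels carry no replicate numbers. Leaving out 1 array in turn, the limma difference of HSC minus LMPP for Zfp932 was from 0.36 to 0.51 and lost its call without LMPP WT replicate 2, and it was 1.05 with WT arrays alone and 0.21 with the 3 knockout genotypes alone (chosen after seeing the data), neither past the threshold. AlphaKO minus WT in LMPP for Zfp932 was from 0.71 to 1.06, and passed without LMPP WT replicate 1, where the lone WT array is assumed to vary like the other groups.

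Values near 0 changed sign, none of them called. HSC minus LMPP for Zfp748 was 0.37 with WT arrays alone and from -0.10 to 0.04 leaving out 1 array. AlphaKO minus WT in HSC for Zfp932 was 0.09 with array weights and from -0.31 to 0.27 leaving out 1 array, and for Zfp951 from -0.07 to 0.37. In LMPP it was -0.25 for Zfp748 with quantile normalization and from -0.24 to 0.14 leaving out 1 array. DKO minus deltaKO in HSC for Zfp932 was 0.01 with quantile normalization and with array weights and from -0.14 to 0.11 leaving out 1 array, and for Zfp951 from -0.30 to 0. In LMPP it was -0.03 for Zfp748 with array weights and from -0.09 to 0.33. DKO minus WT in HSC for Zfp748 was -0.01 with quantile normalization and from -0.29 to 0.26, and DKO minus alphaKO in LMPP for Zfp932 was from -0.01 to 0.36.

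Without minus with p110δ kept its sign in every alternative run, which were quantile normalization and leaving out each array. In LMPP it was from 0.87 to 1.09 for Zfp748, 0.65 to 0.83 for Zfp932 and 0.55 to 0.84 for Zfp951 leaving out 1 array, and in HSC from 0.40 to 0.69, 0.26 to 0.55 and 0.46 to 0.68. Zfp951 in LMPP minus WT moved with the WT array left out, from 0.78 to 1.35 in deltaKO and from 0.50 to 1.07 in DKO.

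Calls over all clusters in HSC minus LMPP were 7694, and 4646 with a stricter filter at the 75th percentile and 226 with WT arrays alone, where fewer clusters or arrays enter. In alphaKO minus WT of LMPP they were 0, and 4 without a filter, 1 with the stricter filter, 5 with all 8 groups in 1 fit, 1 without LMPP WT replicate 2 and 4454 without LMPP WT replicate 1. DKO minus deltaKO in HSC had 0, and 1 with all 8 groups in 1 fit. Elsewhere the cause of such shifts was not tested. Other counts stayed within 1.5 times. No alternative was run for the difference between cell types in an effect or for deltaKO minus alphaKO. The remaining results for the 3 genes that were varied kept their direction and side of the threshold, though uncalled ones moved in size, as alphaKO minus WT in HSC for Zfp748 (from -0.68 to -0.12), DKO minus deltaKO in LMPP for Zfp932 (from -0.42 to -0.06) and HSC minus LMPP for Zfp951 (from 0.03 to 0.17), leaving out 1 array.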
